A study of Mus musculus with 2 samples.

Results

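Histones are the proteins that package DNA. In testes of day 10 mice they were read by 30 of the 12422 non-control probe sets of an expression array, chosen because every gene symbol annotated to the probe set is that of a core or linker histone. A probe set is a group of short array probes meant for 1 transcript. Of these 30, 24 were annotated to 1 gene and 6 to several, and together they name 36 histone genes. Because histone genes share long stretches of sequence, probe sets are counted here and not genes. No probe set of the annotation used here carried an H4 symbol, so H4 genes are not analysed.

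The study compared heterozygous (Mili+/-) with homozygous mutant (Mili-/-) mice at day 10 after birth. MILI is a Piwi-family protein of germ cells that works with piRNAs, and per the labels the mutant stops early in meiotic prophase, with dying cells seen from day 11. For each genotype 1 array was hybridised with polyadenylated RNA. There is thus no replicate, and no test was possible. How many animals stand behind each array, their strain and the nature of the mutant allele are not stated in the labels. The mice with 1 intact copy of the gene are the control.

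Core histones H2A, H2B, H3 and H4 form the nucleosome, and the linker histone H1 binds where DNA enters and leaves it. Most core and H1 genes lie in clusters, are expressed in S phase, and give mRNAs that end in a stem-loop in place of a poly(A) tail. Replacement variants such as H2A.Z are encoded outside those clusters, and most are made through the cell cycle and give polyadenylated mRNAs. In the male germ line, testis forms of H1 and H2B are added in spermatogonia and meiotic cells, and later most histones give way to transition proteins and protamines. A preparation of polyadenylated RNA therefore bears differently on cluster genes and on most variants.

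The promoters of genes behind the described probe sets show how alike some neighbouring histone genes are and which motifs many of them hold. Only H3c14 with H3c15 and H2ac18 with H2ac19 were compared for likeness, and promoters are not the transcripts that the probes read. The sequences are RefSeq's, build GRCm38.p6, and each run is the 250 bases before an annotated gene start, 5′ to 3′ on the gene's strand. Of the 36 genes, 30 had a promoter in the table. For the neighbouring H3 genes H3c14 and H3c15, capitals mark the longest run present in both windows, which is 231 bases long and starts at base 16 of the H3c14 window and base 1 of the H3c15 window.
H3c14 (chr3:96246435-96246684, plus strand): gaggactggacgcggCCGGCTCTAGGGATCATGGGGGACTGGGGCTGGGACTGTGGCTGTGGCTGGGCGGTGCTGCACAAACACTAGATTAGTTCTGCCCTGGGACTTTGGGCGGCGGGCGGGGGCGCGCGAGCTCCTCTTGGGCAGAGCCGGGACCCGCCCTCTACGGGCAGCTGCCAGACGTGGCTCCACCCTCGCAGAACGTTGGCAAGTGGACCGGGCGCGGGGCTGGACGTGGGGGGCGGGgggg
H3c15 (chr3:96239128-96239377, minus strand): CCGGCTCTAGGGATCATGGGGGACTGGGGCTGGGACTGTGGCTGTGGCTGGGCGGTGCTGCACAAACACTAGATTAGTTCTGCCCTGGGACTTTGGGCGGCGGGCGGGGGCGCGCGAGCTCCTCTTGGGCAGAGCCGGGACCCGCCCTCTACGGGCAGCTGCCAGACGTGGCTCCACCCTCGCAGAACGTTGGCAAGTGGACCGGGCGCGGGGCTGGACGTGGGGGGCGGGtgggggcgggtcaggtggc
The H2A genes H2ac18 and H2ac19, which lie beside them, shared a run of 169 bases in the same way. For the replacement variant gene H2az1 and the cluster gene H2bc8, capitals mark the 3 motifs given after the sequences. Motifs were searched on both strands and independently, so matches could overlap.
H2az1 (chr3:137864237-137864486, plus strand): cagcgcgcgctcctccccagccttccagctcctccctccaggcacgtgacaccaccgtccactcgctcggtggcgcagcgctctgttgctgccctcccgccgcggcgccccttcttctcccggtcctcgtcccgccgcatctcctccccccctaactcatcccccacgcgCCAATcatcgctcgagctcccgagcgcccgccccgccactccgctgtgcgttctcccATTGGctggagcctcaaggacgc
H2bc8 (chr13:23571150-23571399, plus strand): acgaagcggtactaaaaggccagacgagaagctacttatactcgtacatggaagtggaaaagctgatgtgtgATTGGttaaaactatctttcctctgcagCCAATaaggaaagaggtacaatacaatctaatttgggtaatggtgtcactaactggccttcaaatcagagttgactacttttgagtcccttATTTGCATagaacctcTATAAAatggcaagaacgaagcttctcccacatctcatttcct
CCAAT, the core of the box read by NF-Y, was in 28 of 31 histone promoters and in 33.85% of all 32851 promoters of that length. TATAAA was in 13 of 31 and in 12.37% of all. The octamer ATTTGCAT, a known element of H2B genes, was in 4 of 6 core H2B promoters and in that of H2bc1, the testis H2B gene, against 1.601% of all. The 31 histone promoters belong to 30 genes and the 6 core H2B promoters to 5, because H2bc6 has a further promoter. The octamer was in one H2bc6 promoter and not in the other. None of the 3 motifs was in the H3c14 or H3c15 window, nor in that of the linker histone gene H1f10. These matches describe letters only.

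Deposited signals are in arbitrary units. Values under the 20th percentile of an array (6.3 in Mili+/- and 7.0 in Mili-/-) were raised to that floor, and log2 values were then centred on the median of their array. All differences are Mili-/- minus Mili+/- on that scale. A probe set was compared if its brighter array reached that array's median (38.5 in Mili+/- and 41.55 in Mili-/-). The 6484 compared probe sets had a median difference of -0.12 and a central 95% between -0.71 and 0.63, and differences are best read against -0.12. The only measure of error is how far probe sets for 1 gene disagree, an SD of 0.31 over 720 genes, called the same-gene SD here. It holds nothing of the spread between animals or hybridisations. The arrays correlated at 0.98 (Pearson's r across probe sets, which are not replicates).

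Histone probe sets differed between the arrays about as much as other probe sets, and one, for the H3 gene H3c14, was past 2-fold. Of the 30 probe sets 11 were compared, and their median difference was -0.15, beside -0.12 for all compared probe sets. Of the 11, 8 (72.7%) lay within 1 same-gene SD of that background, as did 72.9% of all compared probe sets, and 10 lay within the central 95%. Only 1 was at least 2-fold higher in Mili-/- and none was 2-fold lower, where 0.509% of all compared probe sets were that much higher and 0.648% that much lower. At 1.5-fold the counts were again 1 higher and none lower, where the background was 2.98% and 5.29%. Of the histone probe sets 36.7% reached the filter, and of all non-control probe sets 52.2%. The other 19 histone probe sets were dim on both arrays. Signals of different probe sets are not compared as transcript levels.

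**Figure D1:**
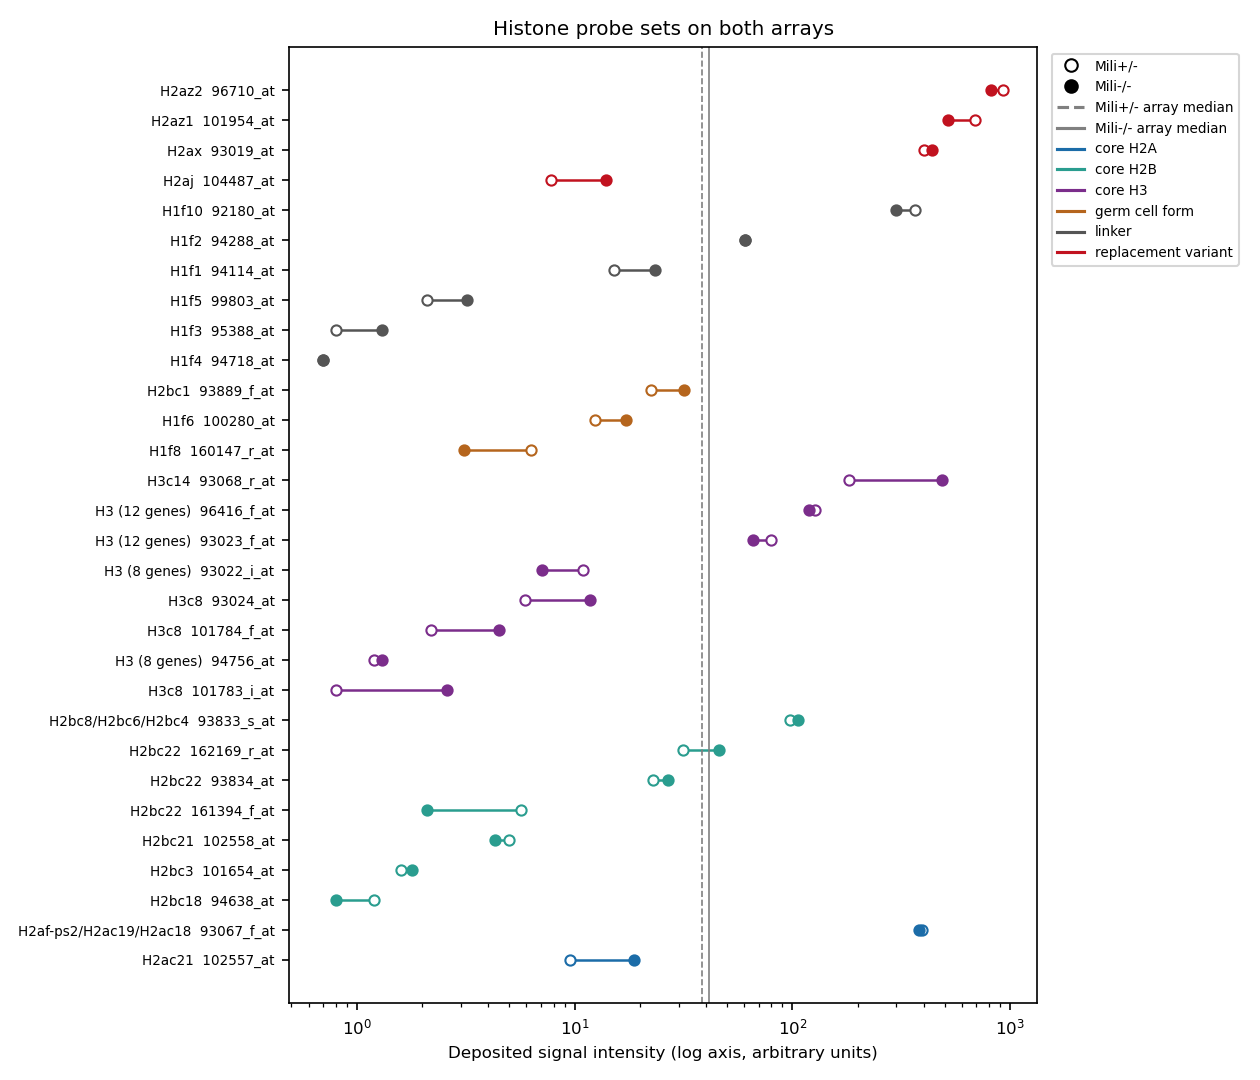
Deposited signal (log axis, arbitrary units) of all 30 histone probe sets on the Mili+/- array (open points) and the Mili-/- array (filled points), with each array's median as a vertical line and colours for histone classes. In the plot 19 probe sets lie left of both medians, and the H3c14 probe set shows the widest gap among those to the right.

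Core histone H3, whose tail carries many of the best known chromatin marks, was read by 8 probe sets, and 3 were compared. On the probe set annotated to H3c14 alone (93068_r_at), the Mili+/- array read 181.9 and the Mili-/- array 488.4. This is 2.49-fold higher after centring (log2 difference 1.31), rank 16 from the top of all 6484 compared probe sets. Both H3 probe sets assigned to 12 H3 genes, H3c14 among them, lay within 1 same-gene SD of the background. One (93023_f_at) had signals of 80.1 and 66.2 (-0.38). The other (96416_f_at) had 127 and 118.9 (-0.21). The H3c14 probe set was thus high on the Mili-/- array while neither broader H3 probe set was.

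H3c14 is named by 5 of the 30 probe sets, and only the one assigned to it alone was higher in Mili-/- past 2-fold. A further probe set assigned to 8 H3 genes (93022_i_at) was dim, at 10.9 and 7.1. Another assigned to the same 8 genes (94756_at) lay under the floor, at 1.2 and 1.3. The 3 probe sets of H3c8, an H3 gene of the large cluster, were also dim. Their signals were 5.9 and 11.8 for 93024_at, 2.2 and 4.5 for 101784_f_at, and 0.8 and 2.6 for 101783_i_at. Each of these 3 was higher in Mili-/- as deposited, but only the first reached the floor on any array, so no fold is given.

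The suffix of the H3c14 probe set, r, marks probes chosen under relaxed rules, so the values of other such probe sets are given beside it. The 258 compared probe sets with that suffix had a median difference of 0.13, beside -0.13 for the 5329 with no suffix. Of those 258, 12 (4.65%) were at least 2-fold higher in Mili-/-, beside 0.263% of probe sets with no suffix. H3c14 held rank 4 among the 258. Among probe sets whose arrays both reached the filter, 1.88% of suffix r probe sets were 2-fold higher, beside 0.168% of all. The part of the suffix in the H3c14 difference was not tested. Without suffixed probe sets no histone probe set was past 2-fold.

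**Figure D2:**
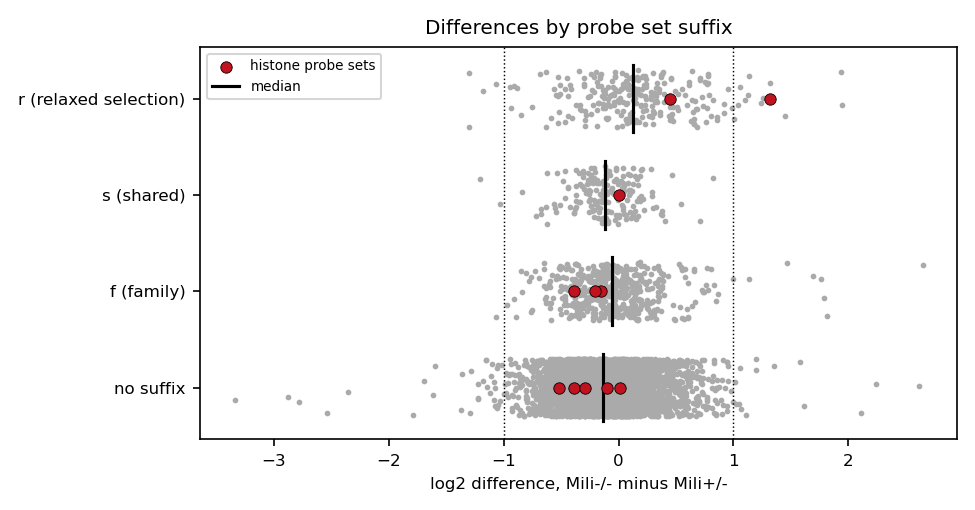
Log2 difference, Mili-/- minus Mili+/- (horizontal axis), of compared probe sets with no suffix and with suffixes f, s and r (rows); grey points are probe sets, black bars medians, red points histones, and dotted lines 2-fold. The r row is shifted to the right, with a median of 0.13, and holds both histone probe sets with the highest differences.

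Core histone H2A, which pairs with H2B, was read by 2 probe sets. The compared one (93067_f_at) is assigned to H2ac18, H2ac19 and the pseudogene H2af-ps2. Its signals were 393.2 in Mili+/- and 382.5 in Mili-/- (-0.15), within 0.03 of the background. This probe set and that of H3c14 were annotated to the same source sequence record, and H2ac18 neighbours H3c14 in the genome, yet their differences were -0.15 and 1.31. The probe set of H2ac21 was dim, at 9.5 and 18.8. A probe set of H2bc21 annotated to the same record as H2ac21 lay under the floor, at 5.0 and 4.3.

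Core histone H2B was read by 7 probe sets and 2 were compared. The probe set shared by H2bc4, H2bc6 and H2bc8 (93833_s_at) had signals of 97.4 and 105.7, a difference of 0.01. H2bc22 had 3 probe sets, of which 1 was compared. That one (162169_r_at) had 31.3 and 46.2 (0.45, 1.37-fold higher after centring) and reached the filter only in Mili-/-, a route that selects for higher values. It too carries suffix r. Another (93834_at), with no suffix, was dim at 22.8 and 26.9. The last (161394_f_at) lay under the floor, at 5.7 and 2.1. The remaining H2B probe sets, of H2bc3, H2bc18 and H2bc21, were all under the floor on both arrays.

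Over the 6 compared core histone probe sets the median difference was -0.07, with 3 above and 3 below the background median. One of those above is the H2bc22 probe set, which reached the filter only in Mili-/-. The core median was -0.15 with both arrays required past the filter, and also -0.15 without the H3c14 probe set. Linker histones had a median of -0.25 over 2 compared probe sets, and replacement variants one of -0.29 over 3. With so few probe sets per class these medians only summarise the values given for each.

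Linker histones were read by 6 probe sets. H1f10 encodes H1.10, a divergent linker histone whose gene lies outside the clusters. Its signals were 364.3 in Mili+/- and 299.8 in Mili-/- (-0.39, 1.31-fold lower after centring), within 1 same-gene SD of the background. H1f2, a cluster gene of somatic H1, had 60.5 and 60.9 (-0.10). The signals of H1f2 were all but equal as deposited, and its sign changed without centring (0.01). H1f1 was dim, at 15.1 and 23.3. H1f3 (0.8 and 1.3), H1f4 (0.7 and 0.7) and H1f5 (2.1 and 3.2) lay under the floor on both arrays.

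Of 4 replacement variants 3 were compared, each through a probe set with 1 gene and no suffix for shared sequence. H2az1 encodes H2A.Z, a variant found around active start sites and regulatory regions. Its signals were 687.8 in Mili+/- and 517.7 in Mili-/-, 1.43-fold lower after centring (-0.52), the lowest difference of the 11. That is 0.40 below the background, more than 1 same-gene SD of 0.31 and less than the 0.62 of 2 SD, and 7.42% of compared probe sets were lower still. H2az2, the second H2A.Z gene, had 930.7 and 818.9 (-0.29). Both H2A.Z probe sets were thus lower in Mili-/-, H2az2 by less than 1 SD from the background. H2ax encodes H2AX, which is phosphorylated at DNA breaks and on the sex chromosomes in meiosis. Its signals were 403.1 and 439.3 (0.01), 0.13 above the background. H2aj, an H2A gene outside the clusters, was dim at 7.8 and 14.

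**Figure D3:**
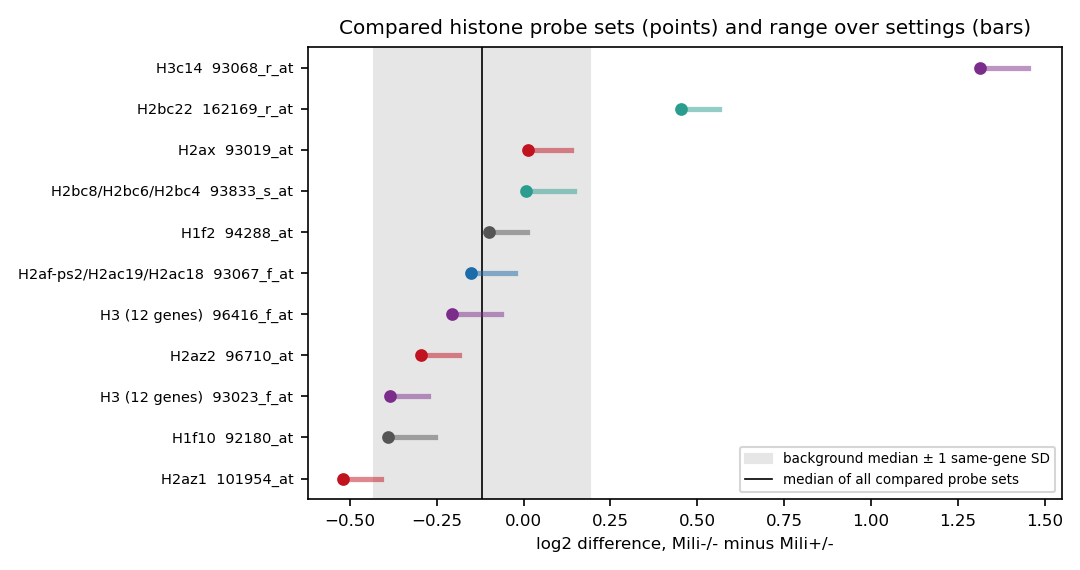
Log2 difference, Mili-/- minus Mili+/- (horizontal axis), of the 11 compared histone probe sets: points are the reported values, coloured bars the range with 5 other scaling and floor settings, the black line the background median of -0.12 and the grey band 1 same-gene SD (0.31) around it. The line and band belong to the reported values only, because the background median moves with the scaling and was -0.01 without centring. H3c14 (1.31) and H2bc22 (0.45) lie to the right of the band and H2az1 (-0.52) to the left.

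Germ cell forms were dim on both arrays. H1f6 encodes H1t, the testis linker histone of meiotic cells, and had signals of 12.4 in Mili+/- and 17.2 in Mili-/-. H2bc1 encodes the testis H2B, and its probe set, whose suffix f marks a sequence family, had 22.5 and 31.9. H1f8, the oocyte linker histone gene, had 6.3 and 3.1. None of the 3 was compared. H1f6 and H2bc1 were higher in Mili-/- as deposited, as were 60.4% of all dim probe sets, and no difference is read from them.

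Of the 19 dim histone probe sets, 10 lay under the floor on both arrays, a larger share than the 32.9% of all dim probe sets. As deposited, 13 of the 19 were higher in Mili-/-, 5 lower and 1 equal. That is 68.4% higher, beside 60.4% of all 5938 dim probe sets. No dim histone probe set was past 2-fold in either direction after the floor was set. The 10 under the floor could not be, because the floor fixes their difference. The same holds for H1f8, whose 6.3 in Mili+/- equals the floor and whose 3.1 in Mili-/- lies under it. With no brightness filter, 293 of all 12422 probe sets were at least 2-fold higher in Mili-/- and 245 lower.

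**Figure D4:**
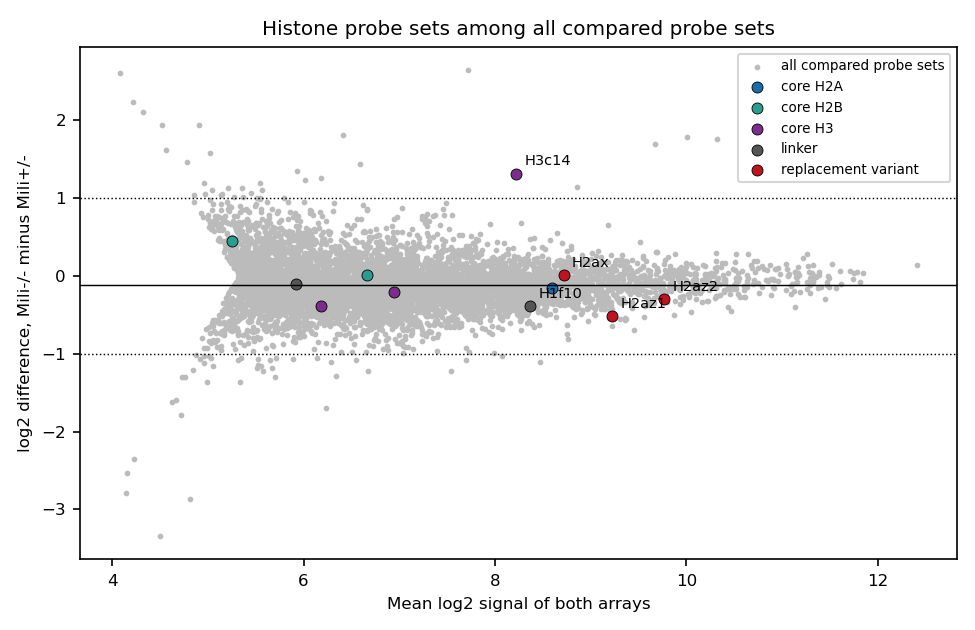
Log2 difference, Mili-/- minus Mili+/- (vertical axis), against the mean log2 signal of both arrays (horizontal axis) for the 6484 compared probe sets (grey) and the 11 compared histone probe sets (coloured by class); dotted lines mark 2-fold and the solid line the median of -0.12. All histone points but H3c14 lie between the dotted lines.

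Several histone probe sets fall outside the set because an annotated symbol is of another kind, and they were picked with their values known. Of these, 2 are assigned to H3f3a and H3f3b, which encode the replacement histone H3.3, together with further genes. One had signals of 873.9 and 744.7 (-0.34), and the other 1449.5 and 1443.2 (-0.12). A probe set assigned to 14 genes, Trim17 and otherwise H2A genes, had 3566.7 and 3661.9 (-0.07). Macroh2a1, which encodes a large H2A variant, had 213.9 and 236 (0.03) in one probe set and 78 and 94.5 (0.17) in one with suffix r. Cenpa, the centromeric H3 gene, had 43.2 and 41.8 (-0.16). None of these lay more than 1 same-gene SD from the background. Hils1, a spermatid linker histone gene, was under the floor.

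Genes that serve histone supply were listed with earlier results of these data known. At the gene level (the brightest probe set with 1 symbol) the 5095 compared genes had a median of -0.13. Of 22 genes for histone mRNA processing and transcription, 14 were compared, with a median of -0.20. None passed 2-fold, where 0.314% of all compared genes were that much higher and 0.53% lower, so a count of 0 says little for this list or for the chaperone and S-phase lists. In this list 9 genes lay below the gene median. E2f1, an S-phase transcription factor gene, stood at -0.63 but reached the filter only in Mili+/-, a route that selects for lower values. Casp8ap2, which encodes a factor of histone locus bodies, stood at -0.45, and Nfyb, an NF-Y subunit gene, at -0.45. Ncbp1, a cap-binding gene, stood at -0.43.

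Of 26 histone chaperone genes 19 were compared, with a median of -0.14 and none past 2-fold. Nasp, which encodes a chaperone of H3, H4 and H1 made in testis and dividing cells, had signals of 167.9 and 106.1 (-0.77). Anp32e, which encodes a chaperone that removes H2A.Z from chromatin, had 282.7 and 191.3 (-0.67). Asf1b, an H3 and H4 chaperone gene, stood at -0.47 and Anp32a at -0.41. Nasp and Anp32e thus stood lower than every compared histone probe set, while the list's median lay near that of all genes.

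S-phase genes, whose expression accompanies that of cluster histones, had a median of -0.27 over 28 of 33 genes. Of these, 21 lay below the gene median and 7 above, and none passed 2-fold. Prim1, a primase gene, had 59.6 and 33.0 (-0.96) and reached the filter only in Mili+/-, like E2f1. Among genes that reached it on both arrays the lowest were Rfc4, a clamp loader gene (-0.69), Prim2 (-0.53) and Cdc45, a replication helicase gene (-0.48). The 6 core histone probe sets, at a median of -0.07, and the S-phase genes are set side by side without a test. With both arrays required past the filter, the medians were -0.15 for core histones and -0.26 for S-phase genes.

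**Figure D5:**
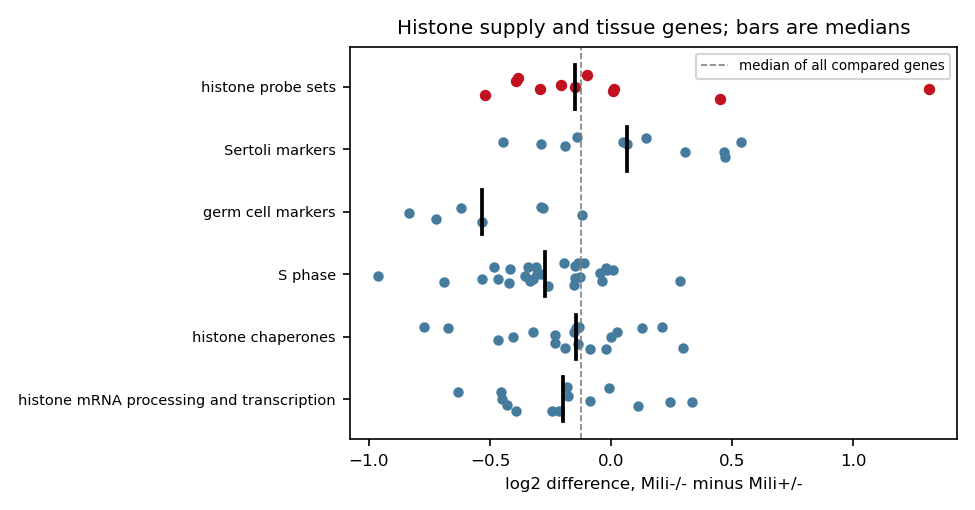
Log2 difference, Mili-/- minus Mili+/- (horizontal axis), of the compared histone probe sets (red) and of compared genes in lists of histone mRNA processing and transcription, histone chaperones, S phase, germ cells and Sertoli cells (blue); black bars are medians and the dashed line the median of all compared genes. S-phase (-0.27) and germ cell (-0.53) medians lie left of the line, and the histone median (-0.15) lies close to it.

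Genes of the proteins that replace histones in spermatids were mostly dim. Of Tnp1, Tnp2, Prm1, Prm2 and Prm3 only Tnp1 was compared, through a suffix r probe set at 56.4 and 69.5 (0.19).

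Marker lists of cell types are given beside these values, and their part in the histone values was not tested. Apart from Car3 of the adipose list, which reached the filter only in Mili-/-, no marker passed 2-fold. Of all compared genes, 0.314% were that much higher and 0.53% lower, so these counts say little. Germ cell markers were present, and 7 of 11 were compared with a median of -0.53, or -0.41 without Sall4, which reached the filter only in Mili+/-. Their summed signal over 8 measured genes was 2558 in Mili+/- and 2138 in Mili-/-, with Sycp3 under the floor on both arrays. Sertoli cell markers had a median of 0.07 over 11 of 12 genes and summed to 4902 and 5689. Leydig cell markers had one of -0.29 over 4 of 6, summing to 774.1 and 693.4. Inhba of the Sertoli list and Star of the Leydig list reached the filter only in Mili+/-. Without them the medians were 0.10 and -0.36. Erythroid markers summed to 1500.4 and 2031.9 (4 of 7 compared, median 0.80) and adipose markers to 244.9 and 447.6 (5 of 7, 0.90). Of these, 2 erythroid and 3 adipose genes reached the filter only in Mili-/-, and over genes that reached it on both arrays, 2 in each list, the medians were 0.61 and 0.54. Single bright probe sets made up much of some sums. In the erythroid list Hba-a1 read 1396.8 in Mili+/- and 1827.9 in Mili-/- (0.28). Dazl of the germ cell list read 1342 and 1190.6, and Clu of the Sertoli list 2363.3 and 2636.1. Of 7 spermatid markers, 2 were compared (median -0.09), 4 lay under the floor on both arrays and the summed signals were 117.3 and 133.8. Odf1 of this list (-0.37) reached the filter only in Mili+/-, which leaves Tnp1 at 0.19. In whole testes, fewer cells of a type and less RNA per cell cannot be told apart.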

How the data were processed

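The authors' deposited table holds 1 linear signal intensity per probe set and array, 12488 rows, of which 66 control probe sets were left out. The software and the background correction: not given in the sources used here. The means without the lowest and highest 2% of values, 100.05 on both arrays, show a common scale, while the medians differed by 0.11 (log2), which centring removed, and the 75th percentiles by -0.03. Depth has no counterpart on arrays, and the number of arrays limits the precision.

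Gene symbols came from a platform annotation and were updated through Entrez IDs in a RefSeq gene table (GRCm38.p6). Of 12422 non-control probe sets, 10833 had 1 symbol, 396 several and 1193 none here. The rule for symbols, applied before or after the update, gave the same 30 probe sets. No probe set here reads the targeted gene, so genotypes were not checked by transcript.

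Groups were taken from the sample titles. Scripts were tested on simulated data. Alternatives were no centring, quantile normalization, loess (span 0.4), no floor, a floor at the 40th percentile, other filters, other probe set choices and thresholds of 1.5-fold and 3-fold. Histone probe sets past 2-fold, all variants, linkers and testis forms, and up to 4 genes per list with the largest difference were to be named. Members and lists were chosen with earlier results of these data known. H2aj was placed with the variants after the files were seen. The software was Python 3.11.15, NumPy 2.4.6, pandas 2.3.3, statsmodels 0.14.6 and Matplotlib 3.10.9.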

Additional observations from a re-analysis of the deposited data

How the results depend on the processing

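The count of 1 histone probe set 2-fold higher in Mili-/- was 0 without suffixed probe sets, 0 at a 3-fold threshold, and 0 without the H3c14 probe set. That last setting was added with the data in view. Leaving out suffixed probe sets or H3c14 removes the only probe set counted, so those results of 0 were fixed in advance. The count was 1 in the other 11 settings. No histone probe set was 2-fold lower in any of the 14. The H3c14 difference ranged from 1.31 to 1.45 over the 5 scaling and floor settings. The median of the core histone probe sets was 0.58 with the filter at the 75th percentile, which left fewer of them, and none were left without suffixed probe sets; its sign was positive in 6 of 11 settings. The median of all compared histone probe sets was negative in 11 of 12 settings and 0.04 with no brightness filter. That 0.04 is the difference the floor gives to every probe set under it on both arrays, so it measures no change. The core histone median took the same value in that setting. The median of the variants was negative in all 12. The background median was also negative in each setting, from -0.13 without suffixed probe sets to -0.00036 with no brightness filter. A negative sign alone therefore does not set histones apart from other probe sets. Scaling moved all compared probe sets together: their median was -0.12, but -0.01 without centring and -0.01 after quantile normalization, and the split of 33 higher and 42 lower past 2-fold became 52 and 26 without centring, 43 and 37 with quantiles equalised, and 44 and 35 under loess. With both arrays required past the filter, added with the data in view, the adipose median was 0.54 in place of 0.90. No paired analysis was possible because each genotype had 1 array, and for the same reason no array could be left out. Dim probe sets limit 19 of the 30 histone values.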
